A study of Caenorhabditis elegans with 2 samples.

Results

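The proteasome subunit genes were taken as the 33 protein-coding genes whose symbols start with pas-, pbs-, rpn- or rpt-, out of 19985 protein-coding genes in the annotation. The list held 14 genes of the core particle (7 pas and 7 pbs) and 19 of the regulatory particle (13 rpn and 6 rpt). Binding was measured by chromatin immunoprecipitation with sequencing (ChIP-seq), with an anti-GFP antibody, in whole young adult Caenorhabditis elegans aged 76 hours. All worms were of strain OP232, which carries the transgene wgIs232, a ceh-40 fusion to TY1, EGFP and FLAG with unc-119, in an unc-119(ed3) background, and were synchronised by L1 starvation after bleaching. The series had 1 group with 2 biological replicates and no second condition, so the fusion stands for CEH-40 on a transgene and no group without it is compared here. Chromatin of all tissues was pooled, so the cells behind a peak cannot be told apart.

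The proteasome is the protease that degrades proteins tagged with ubiquitin. Its core particle is a barrel of stacked rings, in which outer alpha subunits, encoded by pas genes, gate the entry and inner beta subunits, encoded by pbs genes, carry the proteolytic sites. The regulatory particle caps the barrel: ATPases encoded by rpt genes unfold the substrate, and rpn subunits form scaffolds, ubiquitin receptors and a lid that removes ubiquitin. CEH-40 is a homeodomain protein of the PBC class, whose members bind DNA together with Hox proteins. In C. elegans many messenger RNAs receive a spliced leader by trans-splicing, so an annotated start can lie downstream of the place where transcription begins.

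Only rpn-3, which encodes a subunit of the lid, had a thresholded CEH-40 peak within 1 kb of a transcription start site (TSS). That is 1 of 33 members (3.03%), none of the 14 core genes and 1 of the 19 regulatory genes, beside a background of 2.75% of protein-coding genes in the same list, so the members' share was near the background. The peak lay on chromosome III from 8446707 to 8446946 (build ce11), with its summit at 8446827. Its signal, the authors' own value per peak with no stated unit, was 65.7, rank 481 of the 867 peaks of the list made from both replicates. The conservative list of 713 peaks also held it. The summit was 526 bp upstream of the rpn-3 start but 82 bp inside hsp-110, a chaperone gene of the HSP110 family that runs the other way, in its coding sequence. A start site of the noncoding RNA gene C30C11.14 was 268 bp away. When a summit was counted only where no start site of another gene was closer, 0 of the 33 members had a peak, against 1.39% of protein-coding genes.

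The rpn-3 peak ranked high in both replicates. The matched peak had a signal of 34.4 in replicate 1 and 46.0 in replicate 2, each on its own replicate's scale, which put it at percentiles 98.2 and 99.1 of the protein-coding genes with a matched peak. The peak passed the threshold in the list of replicate 2 (287 peaks, summit at 8446826) and did not in that of replicate 1 (296 peaks), where the ranked summit nearest to it was at 8446691. Thresholded lists end at an irreproducible discovery rate (IDR) of 0.01, which is 2 on the −log10 scale. The IDR is low where the 2 rankings that it compares place a peak alike. For rpn-3 the deposited −log10 IDR was 2.57. The 2 signals deposited beside that IDR were 32.8 and 31.8, not the replicate signals above, so it is not read as agreement between the replicates. The next members fell short of the threshold with 1.35 at rpn-8, 1.26 at rpn-1, 1.19 at pas-1 and 1.13 at pbs-3.

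The sequence under the rpn-3 peak is shown because it is the single thresholded peak of the family. Capitals mark any match, on either strand, to the letters searched here: TGATNNAT, bound by pairs of PBC and Hox proteins; TGACAG, bound by MEIS proteins; and ATCAT and GTCAT, core letters of sites for SKN-1, a transcription factor known to activate proteasome genes in C. elegans. The 240 bp, on the plus strand of chr III:8446707-8446946, held 1 GTCAT and no match to the other letters, with a GC content of 38.3%.
rpn-3 peak: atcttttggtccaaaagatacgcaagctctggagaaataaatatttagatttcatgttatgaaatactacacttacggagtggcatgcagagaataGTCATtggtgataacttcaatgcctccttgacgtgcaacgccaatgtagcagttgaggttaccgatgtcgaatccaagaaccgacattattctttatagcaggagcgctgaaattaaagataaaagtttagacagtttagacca

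The promoters of rpn-3, rpt-4 and rpt-3, which were the first, the third and the fourth of the members in ranked signal, follow, from 250 bp before to 50 bp after the start site nearest the strongest summit, on the strand of each gene. The sequence of rpn-8, the second in signal, is not printed here. That of rpn-3 is at chr III:8447103-8447402 on the plus strand, that of rpt-4 at chr II:43613-43912 on the minus strand, and that of rpt-3 at chr III:6489543-6489842 on the plus strand. The rpn-3 promoter held 2 ATCAT matches, that of rpt-4 held 1 GTCAT, and that of rpt-3 held 1 TGATNNAT and 1 GTCAT. No strongest summit lies in these promoter sequences: they were 526 bp upstream, 449 bp upstream and 155 bp downstream of the starts. The gene rpt-4 has 2 start sites, and its printed promoter and its summit both lie inside the annotated gene, chr II:42207-46216.
rpn-3 promoter: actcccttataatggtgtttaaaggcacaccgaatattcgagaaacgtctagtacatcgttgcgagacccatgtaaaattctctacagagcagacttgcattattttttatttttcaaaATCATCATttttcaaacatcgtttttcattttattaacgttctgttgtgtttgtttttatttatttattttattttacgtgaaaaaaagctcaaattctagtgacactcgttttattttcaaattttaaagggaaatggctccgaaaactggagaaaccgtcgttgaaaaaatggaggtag
rpt-4 promoter: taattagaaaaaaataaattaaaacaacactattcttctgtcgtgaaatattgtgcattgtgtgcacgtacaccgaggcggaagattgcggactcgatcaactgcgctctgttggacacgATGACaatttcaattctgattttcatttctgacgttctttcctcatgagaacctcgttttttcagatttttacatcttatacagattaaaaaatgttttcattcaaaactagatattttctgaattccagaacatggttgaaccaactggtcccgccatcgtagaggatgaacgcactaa
rpt-3 promoter: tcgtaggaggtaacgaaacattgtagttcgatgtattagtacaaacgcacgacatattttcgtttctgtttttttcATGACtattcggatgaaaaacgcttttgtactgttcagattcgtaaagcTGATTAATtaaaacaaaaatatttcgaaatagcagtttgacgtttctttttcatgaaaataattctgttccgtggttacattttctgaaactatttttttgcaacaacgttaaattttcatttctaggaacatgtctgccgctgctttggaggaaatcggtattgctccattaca

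For rpt-4 and rpt-3, the 101 bp centred on the strongest ranked summit are shown on the plus strand, at chr II:44061-44161 and chr III:6489898-6489998. The rpt-4 window held 1 TGATNNAT and 1 ATCAT, and the rpt-3 window held no match. The rpt-4 summit was 5 bp from the start of nfyc-1, which encodes a subunit of the NF-Y transcription factor, and the rpt-3 summit was in the coding sequence of rpt-3.
rpt-4 summit: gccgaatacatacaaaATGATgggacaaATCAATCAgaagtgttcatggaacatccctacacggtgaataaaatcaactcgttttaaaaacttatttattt
rpt-3 summit: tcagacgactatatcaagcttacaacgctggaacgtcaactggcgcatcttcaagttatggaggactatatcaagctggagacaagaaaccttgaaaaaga

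Over all members the letters of a PBC and Hox site were about as frequent as elsewhere. The site TGATNNAT was in 7 of 33 member promoters (21.2%) against 23.6% of 19973 promoters of protein-coding genes, taken at the most upstream start site. In 241 bp centred on the strongest ranked summit it was in 6 of 33 (18.2%) against 16.9% of 17010 windows. All of these were regulatory genes: 0 of 14 core genes held it in either window, beside 7 of 19 regulatory promoters and 6 of 19 regulatory summit windows. GTCAT was in 19 of 33 promoters (57.6%) against 39.5%, and in 16 of 33 summit windows (48.5%) against 31.6%. ATCAT, which shares letters with TGATNNAT on the opposite strand, was in 57.6% of member promoters against 55.6%, and in 54.5% of summit windows against 45.8%. The MEIS letters were in 12.1% against 9.68% of promoters and in 15.2% against 9.02% of summit windows. The other letters were present in both particles, but GTCAT and the MEIS letters were more frequent at core genes in summit windows. There, GTCAT was at 10 of 14 core and 6 of 19 regulatory genes, and the MEIS letters at 4 of 14 and 1 of 19. None of these differences between the particles was tested. In promoters, GTCAT was at 9 of 14 core and 10 of 19 regulatory genes, and the MEIS letters at 1 of 14 and 3 of 19. ATCAT was at 8 of 14 and 11 of 19 promoters, and at 8 of 14 and 10 of 19 summit windows. A match is a run of letters and was not tested as a binding site.

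Below the threshold, the proteasome genes carried stronger candidate peaks than the typical protein-coding gene. The ranked list orders 103201 candidate peaks, and every one of the 33 members had at least 1 of its summits within 1 kb, against 85.2% of protein-coding genes. The strongest of them per member had a median signal of 33.9, with a range from 22.0 at pas-3 to 65.7 at rpn-3, against a median of 27.1 over the 17022 protein-coding genes with such a summit. The median percentile of the members among those genes was 74.5, and 27 of the 33 were above the gene median. In the top quartile, at a signal of at least 34.10, stood 15 of 33 members (45.5%), against 25% of genes by construction. Just outside it were rpn-13, a ubiquitin receptor, at 34.07 and rpn-2, a scaffold, at 33.9, and just inside it was pbs-3 at 35.4. Members had a median of 4 ranked summits within 1 kb (1 to 6) against 3 over protein-coding genes, and 25 members had 1 annotated start site and 8 had 2. No p-value is given for these shares, because genes of a chosen list are not replicates and the group has 2 samples.

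**Figure D1:**
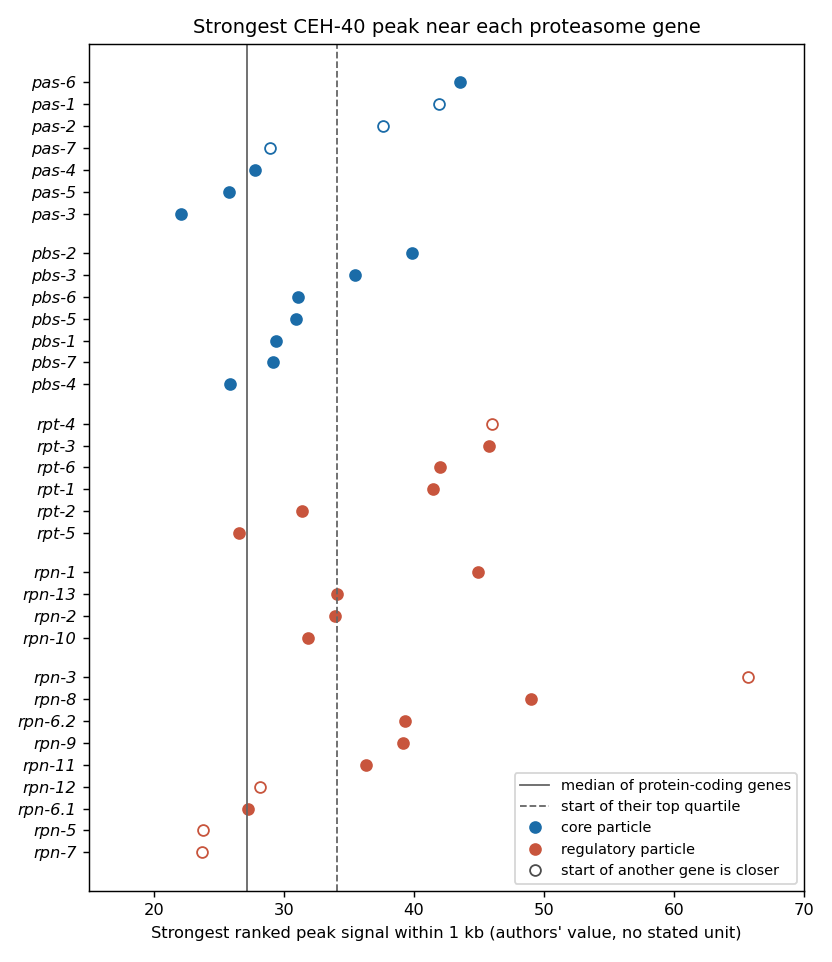
Signal of the strongest ranked peak within 1 kb of a start site (x axis, the authors' value with no stated unit) for each of the 33 proteasome genes, grouped by module; open points are members for which the start of another gene is closer to the summit. The solid line is the protein-coding median of 27.1 and the dashed line the start of the top quartile at 34.1, and rpn-3 stands alone at 65.7.

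Among core genes, the alpha subunits ranged from the lowest value of the family to the sixth highest. The highest of the ring was pas-6 at 43.5 (23.1 in replicate 1 and 17.95 in replicate 2), with its summit 75 bp upstream of the start in intergenic sequence. The gene pas-1 followed at 41.9, but its summit was 777 bp upstream and 91 bp from the start of rpoa-12, which encodes a subunit of RNA polymerase I. The lowest of all members was pas-3 at 22.0, a percentile of 28.6. Its strongest peak in the list matched between replicates had 4.54 in replicate 1 and 11.3 in replicate 2, the lowest replicate 1 value of any member. The other alpha genes, pas-2, pas-7, pas-4 and pas-5, had 37.6, 28.9, 27.7 and 25.8, and the median of the 7 was 28.9.

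The beta genes whose subunits carry the proteolytic sites included the highest of the ring, pbs-2, and otherwise lay among the structural beta genes. The gene pbs-5, for the chymotrypsin-like subunit, had a signal of 30.9 (17.99 in replicate 1 and 31.0 in replicate 2), 100 bp into the gene. For pbs-2, the trypsin-like subunit, the signal was 39.8 (10.8 and 27.2 in replicates 1 and 2), 18 bp into the gene. The caspase-like subunit gene pbs-1 had 29.4 (9.90 and 23.3), 457 bp into the gene. Replicate 2 had the higher value at all 3, as at 5 of the 7 beta genes and at 60.1% of protein-coding genes. The structural beta genes were at 35.4 for pbs-3, 31.1 for pbs-6, 29.2 for pbs-7 and 25.9 for pbs-4, and the median of the 7 was 30.9.

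In the regulatory particle the ATPase genes had the highest median, 41.7 over 6 genes, with 4 of 6 in the top quartile. The strongest was rpt-4 at 46.0 (18.8 in replicate 1 and 24.4 in replicate 2), beside the nfyc-1 start described with its sequence. Next was rpt-3 at 45.8 (19.3 and 24.9), inside its own coding sequence. The genes rpt-6 and rpt-1 had 42.0 and 41.5, with the rpt-1 summit in the coding sequence of mans-2. The genes rpt-2 and rpt-5 had 31.4 and 26.5, the last below the protein-coding median.

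Of the scaffold and receptor genes, rpn-1 had 44.9 (17.1 in replicate 1 and 24.6 in replicate 2), in an intron 147 bp into the gene. The other scaffold gene, rpn-2, had 33.9, and the ubiquitin receptor genes rpn-13 and rpn-10 had 34.1 and 31.9. The rpn-10 value rested on replicate 2, with 6.70 in replicate 1 and 25.1 in replicate 2.

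The lid genes held both the highest and nearly the lowest values. After rpn-3 came rpn-8 at 49.0 (28.7 in replicate 1 and 21.5 in replicate 2), 38 bp into the gene. Its summit was 640 bp from the start of a small RNA gene, and no other member had its strongest summit so near to such a gene, within 1 kb. The deubiquitinase gene rpn-11 had 36.3, 60 bp from a start site and in an untranslated or noncoding exon, and rpn-9 had 39.2. At the low end were rpn-7 at 23.7 and rpn-5 at 23.7, whose summits lay 773 and 999 bp upstream of their starts, nearer to F49C12.9 and to the cohesin gene scc-1. For rpn-7 the strongest matched peak was another, of signal 22.5, with 15.2 in replicate 1 and 10.7 in replicate 2. The genes rpn-12 and rpn-6.1 had 28.1 and 27.2, and the rpn-12 peak lay in the coding sequence of its neighbour rad-23, a ubiquitin shuttle. The paralogue rpn-6.2 had 39.3, above rpn-6.1, although 8.64 in replicate 1 and 35.4 in replicate 2 made it the member with the largest ratio of replicate 2 to replicate 1 (4.09). The largest ratio the other way was 1.67 at rpn-5, with 13.6 in replicate 1 and 8.15 in replicate 2.

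Regulatory genes had a higher median than core genes at 1 kb, but the order depended on the window and the replicate. The medians were 36.3 over 19 regulatory genes and 30.2 over 14 core genes, a core minus regulatory difference of -6.13. All of the 5 strongest members were regulatory, and 10 of 19 regulatory and 5 of 14 core genes were in the top quartile. In the columns of matched peaks, the medians were 14.5 for core and 15.7 for regulatory genes in replicate 1, and 16.8 and 22.6 in replicate 2. The core minus regulatory difference in these columns was -1.19 in replicate 1 and -5.81 in replicate 2, and the SD of these 2 values was 3.27. The sign turned with a window of 2 kb (2.40) and in the ranked list of replicate 1 alone (1.95), while that of replicate 2 alone gave -5.16. Lists and columns of a single replicate have their own scale, so only the sign of the differences in them is set beside -6.13. With a window of 500 bp the difference was -1.67.

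The chromosome also moved with the particle. Chromosome I held 7 of the 14 core genes and 3 of the 19 regulatory genes. Members on it had a median of 28.5 over 10 genes and those elsewhere 36.3 over 23, whereas protein-coding genes had 28.3 on chromosome I and 26.9 elsewhere. Among members elsewhere, core genes had a median of 35.4 and regulatory genes 37.7, a difference of -2.28, and on chromosome I the medians were 27.7 and 31.9. The part of the chromosome in the difference was not tested.

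**Figure D2:**
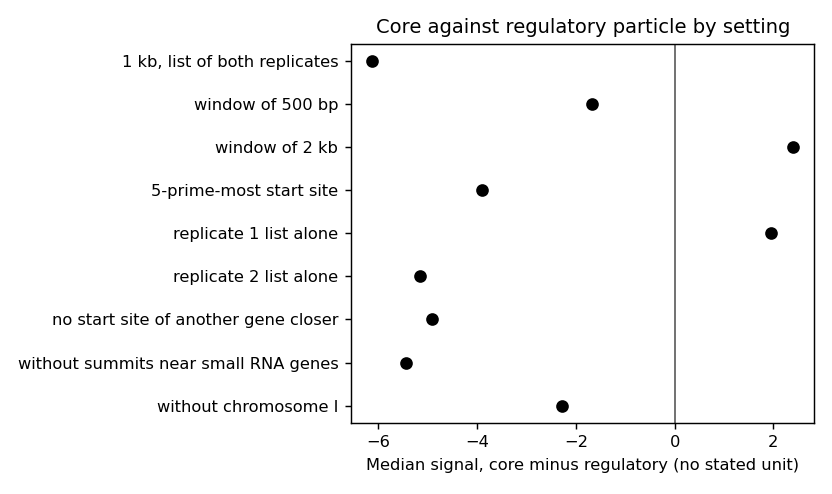
Difference between the medians of core and regulatory genes in strongest ranked signal (x axis, no stated unit) under each setting named on the y axis. Points left of 0 mean that regulatory genes were higher, and the points for the 2 kb window (2.40) and for the replicate 1 list (1.95) lie on the other side. The points for the list of a single replicate are on the scale of that replicate.

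The replicates ranked the proteasome genes differently. Replicate 1 had 12 of 33 members in its top quartile and replicate 2 had 16, but 6 were in both (18.2%), against 9.91% of the 15964 protein-coding genes with a matched peak. The 6 were rpn-3, rpn-8, rpt-3, rpt-4, rpt-6 and pbs-5, of which 1 is a core gene. Across the 33 members, which share the same libraries, Spearman's rho between the replicate signals was 0.06 and Pearson's r of the log2 signals 0.16. Across all 15964 genes these were 0.23 and 0.32. The replicate signals were not rescaled to each other, and their medians over protein-coding genes were 13.0 and 14.4. Replicate 2 was higher at 20 of 33 members (60.6%), against 60.1% of genes, and by at least 2-fold at 7 members (17.2% of genes), while replicate 1 was higher by 2-fold at 0 members (5.05% of genes). The alpha genes were higher in replicate 1 at 5 of 7, and none was in the top quartile of replicate 2. All 6 ATPase genes were in the top quartile of replicate 2, against 3 of 6 in replicate 1.

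**Figure D3:**
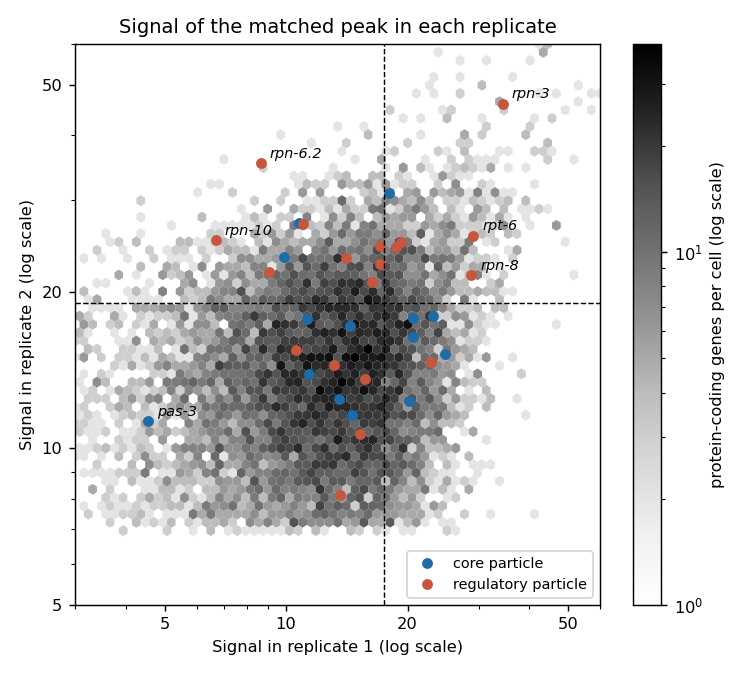
Signal of the matched peak in replicate 1 (x axis) and replicate 2 (y axis), both on log scales with no stated unit, for proteasome genes (coloured points) over all protein-coding genes (grey cells, darker where more genes lie; genes outside the axes are not drawn). Dashed lines start the top quartile of each replicate, and 6 members lie above both.

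The strongest summits of the members were mostly in coding sequence. Of the 33 summits, 24 were in coding exons (72.7%), against 37.6% over protein-coding genes, 4 in introns (12.1% against 23.3%), 4 in intergenic sequence (12.1% against 29.0%) and 1 in an untranslated or noncoding exon. Of the 24, 17 were in the coding sequence of the member and 7 in that of a neighbour. The sequence around member starts was itself richer in coding bases, with a median of 55.2% of the bases within 1 kb against 29.6% over protein-coding genes. The summit windows had a median GC content of 41.1% against 38.6%, while the promoters had 34.3% in both. The part of coding content and base composition in the signal was not tested.

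Summits stood at a median of 434 bp from the nearest start of the member, against 463 bp over protein-coding genes, and 9 of 33 were within 200 bp (27.3% against 23.6%). They were upstream of the nearest start at 13 members (39.4%, against 47.3% over protein-coding genes) and downstream at 20. With downstream counted as positive, members had a median offset of 60 bp and protein-coding genes 42 bp. Of the upstream summits, those of rpt-4, rpn-6.1 and rpn-6.2 lay inside the member's own annotated gene. Each was upstream of the nearer of its gene's 2 start sites. For 8 members, 3 core and 5 regulatory, the start of another gene was closer to the summit. The same share over protein-coding genes was not computed, so this count is not read as a trait of the family. Counting only summits with no closer start of another gene, the median distance was 251 bp over 32 members, against 377 bp over protein-coding genes. The 8 were pas-1, pas-2, pas-7, rpn-3, rpn-5, rpn-7, rpn-12 and rpt-4, so that 2 of the 3 strongest members, rpn-3 and rpt-4, had their summit nearer to a neighbour. Next to the members, 8 of 33 (24.2%) had a protein-coding gene ending within 500 bp upstream on the same strand, against 18.1% of protein-coding genes.

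**Figure D4:**
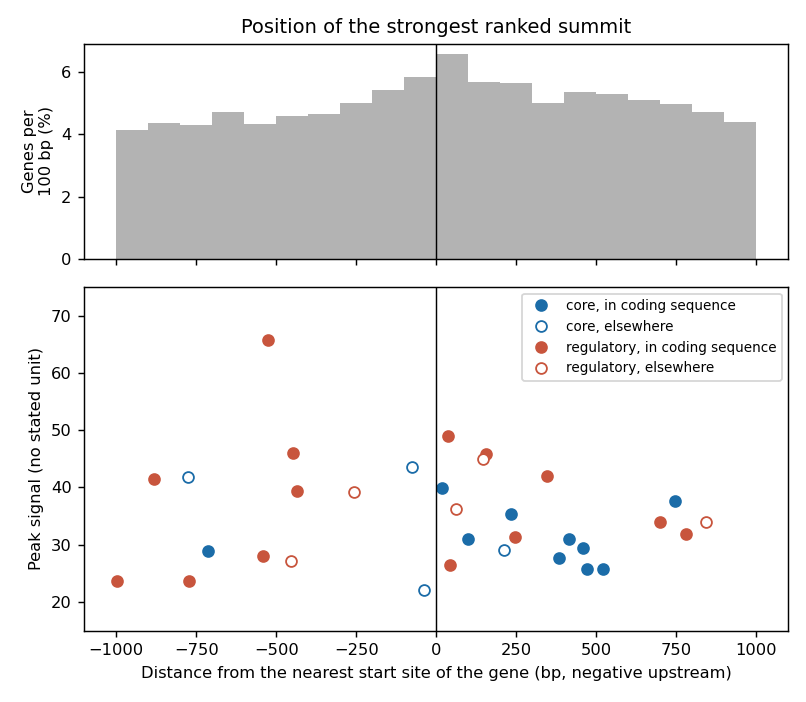
Upper panel, distance of the strongest ranked summit from the nearest start of its gene for protein-coding genes, as percent of genes per 100 bp. Lower panel, the same distance (x axis, bp, negative upstream) and the peak signal (y axis, no stated unit) for the 33 members, filled where the summit is in coding sequence, as it is for 24 of them.

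Other genes of the ubiquitin pathway stood on both sides of the proteasome genes. Among 7 genes of ubiquitin supply and shuttling the median was 39.8, 4 were in the top quartile and 2, ubq-2 (58.4) and the polyubiquitin gene ubq-1 (57.5), had a thresholded peak. The strongest peak of rad-23 in this list (28.1) was the same peak as that of rpn-12. Of 5 genes listed here as partners of the particle, 3 had a ranked summit (median 25.3), led by aip-1 at 44.8. The genes dss-1 and psme-3 of that list had none. Of 5 regulators of proteasome genes, 3 had a ranked summit (median 30.5), led by skn-1 at 55.5 (16.5 in replicate 1 and 33.6 in replicate 2). All 3 regulators were higher in replicate 2, with a median ratio of 5.82 against 1.15 over protein-coding genes. In both replicates at once 0 of the 3 were in the top quartile. Complexes whose subunits resemble those of the lid were lower than the lid genes' median of 36.3. Their genes were taken by symbols starting csn- and eif-3, so any subunit under another symbol is left out. The COP9 signalosome, which removes the ubiquitin-like protein NEDD8 from ligases, had a ranked summit at 3 of 6 such genes (median 27.5, led by csn-6 at 35.7). The translation initiation factor eIF3 had one at 9 of 11 (median 30.5, led by eif-3.K at 46.3). None of these complexes or of the partner and regulator lists had a thresholded peak. The share over all protein-coding genes was 2.75%, so an absence in lists this small is near the background. Ribosomal protein genes were higher than the proteasome genes, with a median of 49.5 over 81 genes, 72 of them (88.9%) in the top quartile and 31 with a thresholded peak. These are counts of genes, and neighbours can share a peak, as rpl-36 and rps-14 did at 52.2. In both replicates at once 51 of the 81 were in the top quartile, against 6 of the 33 proteasome genes.

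**Figure D5:**
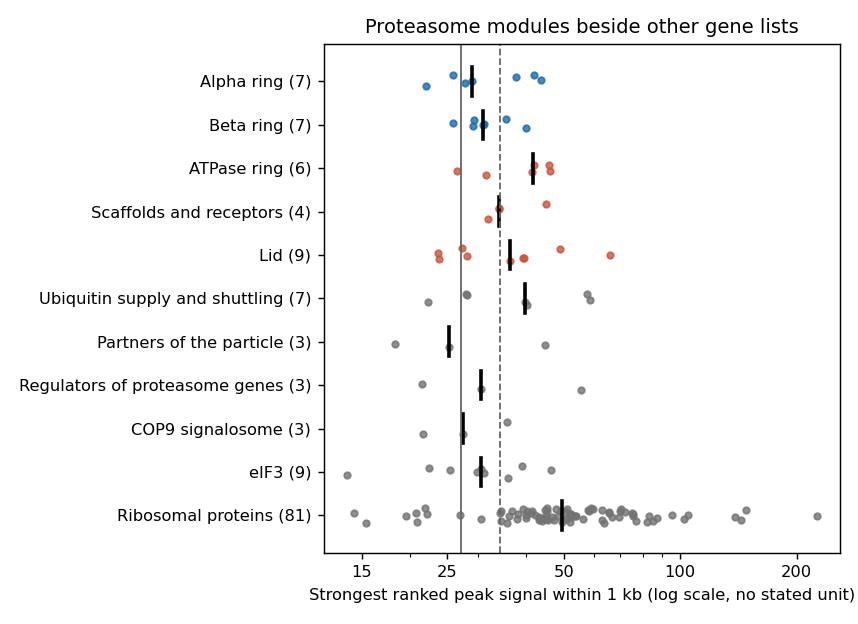
Strongest ranked signal within 1 kb (x axis, log scale, no stated unit) for the genes of each proteasome module and of the other lists, with the number of genes that have a ranked summit in brackets. Black bars are medians, the solid line is the protein-coding median of 27.1, the dashed line is the start of the top quartile, and the median of the ribosomal protein genes, 49.5, lies to the right of the median of each proteasome module.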

How the data were processed

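Peaks came from ChIP-seq of 2 biological replicates of 1 strain. The deposited lists are on build ce11, per the labels, and no peak ended past its WBcel235 chromosome. Aligner, peak caller and the unit of the signal: not given in the sources used here. The signal is the authors' value per peak, deposited with each list. Genes were compared within a list. The replicate signals of the matched list come from separate replicate lists and were set side by side with no rescaling, so their ratios and counts also hold any difference in scale and are read against the same over all protein-coding genes. The −log10 IDR is also as deposited by the authors. Depth is unknown, because peak lists carry no reads. The signal columns of the list matched between replicates were tied to a replicate by exact value. Of the 77932 values of the first column, 35740 occurred among the peaks of replicate 1 and 0 among those of replicate 2. For the second column, 41183 of 77932 occurred in replicate 2 and 0 in replicate 1. At the members, 25 of 33 first values and 29 of 33 second values had an exact match. Values without a match were assigned by their column.

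Genes and start sites were those of Ensembl release 115, and sequence was RefSeq WBcel235. A summit within 1 kb of any start site was assigned to the gene, and the strongest was kept. The assignment was tested on placed peaks with known answers. Computations used Python 3.11.15, pandas 2.3.3 and numpy 2.4.6. No test was run, since genes are not replicates. All members are accounted for, and those given in full were the member with a peak, the 3 highest and 2 lowest, the catalytic subunits and those of largest replicate ratio. Members and lists were chosen with earlier results of these data known.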

Additional observations from a re-analysis of the deposited data

How the results depend on the processing

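Thresholded peaks were at 0 members with a window of 500 bp (1.64% of protein-coding genes) and at 4 with 2 kb (4.56%). At 2 kb each of these peaks was nearer to the start of another gene. They were at 0 members at an IDR of at most 0.001 (0.66%) and at 0 where no other start was closer (1.39%). The list of replicate 1 alone gave 0 members (0.92%) and that of replicate 2 alone gave 1 (0.90%). At shares this low, 0 of 33 members is near the background. The median signal of the members was 29.9 with 500 bp (protein-coding genes 23.7), 41.9 with 2 kb (31.2), 31.9 with the most upstream start only (26.4), 31.2 where no other start was closer (25.4), 36.3 without chromosome I (26.9, chosen after the data were seen), and 17.6 to 21.9 in the list of a single replicate (15.8 and 16.9), so it stayed above that of protein-coding genes under every setting named here. The core minus regulatory difference was -1.67 with 500 bp, 2.40 with 2 kb and -2.28 without chromosome I, and ran from -5.16 to 1.95 in the lists of a single replicate; the cause of the turned signs was not tested. Of the members, 12 to 22 were in the top quartile over the settings, and 2 were in the top 10% in both replicates (3.78% of genes). The median distance was 251 bp where no other start was closer (377 bp over protein-coding genes) and 424 to 464 bp in the lists of a single replicate. No paired analysis was possible because there was 1 group. The depth behind each peak is unknown, so low signals in the ranked list carry no error of their own.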

Other observations

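Between 1 and 2 kb from a start, 3 further proteasome genes had thresholded peaks. The strongest was at pbs-1, with a signal of 154.7 at chromosome IV 1711070 to 1711309, at an offset of -1445 bp from the pbs-1 start and 72 bp from that of rpi-2. It was in the conservative list and in those of both replicates. The gene rpt-2 had peaks of signal 57.8 and 5.66, 1381 and 1178 bp downstream of its start. They were 512 and 715 bp from the start of a snoRNA gene, F29G9.19. Both peaks were in the conservative list but in neither replicate's list. The gene rpn-10 had 1 of signal 46.7, 1620 bp downstream of its start, with B0205.12 starting 341 bp away, in none of the 3 other thresholded lists. In the window of 2 kb, 4 of 33 members (12.1%) thus had a thresholded peak, against 4.56% of protein-coding genes. For every one of these peaks, that of rpn-3 included, the start of another gene was closer to the summit than that of the member. At 2 kb, the share of protein-coding genes with a peak nearest to their own start was not computed.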
